A study of Gallus gallus with 9 samples.

Results

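The genes described here were low in the freshly laid chicken embryo and on in both cell types taken from the embryo at Hamburger and Hamilton (HH) stage 28. They were chosen by the deposited normalized values. For each gene the lowest of the 6 values in gonadal primordial germ cells (PGCs) and chicken embryonic fibroblasts (CEFs) was divided by the highest of the 3 values in EGK.X blastoderms, after 1 was added to both, and the log2 of that ratio was taken as the score. The genes that the study itself lists for DNA repair, apoptosis, and pluripotency were left out, and the 200 genes with the highest score were taken from the 24356 genes listed, of which 22698 had at least 1 count.

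All samples came from White Leghorn chickens and none was treated. EGK.X blastoderms (Eyal-Giladi and Kochav stage X) were whole embryos of freshly laid eggs, pooled within a replicate. PGCs were pooled from dissociated gonads of many HH stage 28 embryos and enriched by magnetic sorting with an antibody against SSEA-1, without culture. CEFs were adherent cells of the HH stage 28 body without organs and limbs, pooled from several embryos and grown to passage 2. Each group had 3 biological replicates, and total RNA was sequenced after removal of ribosomal RNA. Stage, cell type, sorting, and culture changed together between the groups, so their parts cannot be told apart. In such bulk samples, fewer cells that express a gene and less of its RNA per cell cannot be told apart either.

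The stage X blastoderm is a disc of cells on the yolk that has not yet gastrulated. It holds pluripotent cells and has no differentiated tissue. By HH stage 28 organs and limbs have formed, fibroblasts make the connective tissue of the body, and the germ cells have reached the gonads.

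The total count on genes ranged from 60066862 to 67475925 in EGK.X blastoderms, from 29512715 to 56255185 in PGCs, and from 43511523 to 64953799 in CEFs. Records that could not be aligned made up 9.46% to 10.1% in EGK.X blastoderms, against 4.60% to 5.10% in PGCs and 4.50% to 5.27% in CEFs, and their part in the low values was not tested. The pluripotency factors were read as a check of the labels. NANOG had 567 to 683 TMM-scaled CPM in EGK.X blastoderms, 140 to 150 in PGCs, and at most 0.040 in CEFs. The chicken POU5F3 homolog had 446 to 620 TMM-scaled CPM in EGK.X blastoderms, 157 to 207 in PGCs, and 8.11 to 10.5 in CEFs. SOX2 was low and did not separate EGK.X blastoderms from PGCs. It averaged 3.13 ± 2.44 in EGK.X blastoderms, 3.42 ± 0.24 in PGCs, and 0.067 ± 0.070 in CEFs (SD, n = 3 each). Values are given throughout as TMM-scaled CPM, the unit of the deposited matrix, in which a count is set against the library size after TMM (trimmed mean of M-values) adjustment. They are not divided by gene length, so they compare libraries and not genes.

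The identifiers of the members are not paired with symbols in the tables used here. The members are therefore described as a group, and a few by their Ensembl identifier. Fibroblast, gonadal, vascular, and blood marker genes could not be looked up for the same reason, so the part of other cells in the sorted PGCs was not tested.

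The members' median level was lower in every EGK.X blastoderm library than in every PGC and CEF library. Their median was 2.55, 2.60, and 2.71 TMM-scaled CPM in EGK.X blastoderm replicates 1 to 3, against 35.3, 34.4, and 37.6 in the PGC replicates and 61.5, 62.0, and 65.2 in the CEF replicates. The interquartile range of the members ran from 0.750 to 6.04 in EGK.X replicate 1, from 16.8 to 83.4 in PGC replicate 1, and from 26.4 to 138 in CEF replicate 1. Ranked by this value, which is not per length, among the 24356 listed genes of a library, the median member stood between places 10792 and 10872 in EGK.X blastoderms, between 5038 and 5172 in PGCs, and between 3698 and 3888 in CEFs. The separation is what the rule asked for. The heatmap of the members shows it in every library.

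**Figure D1:**
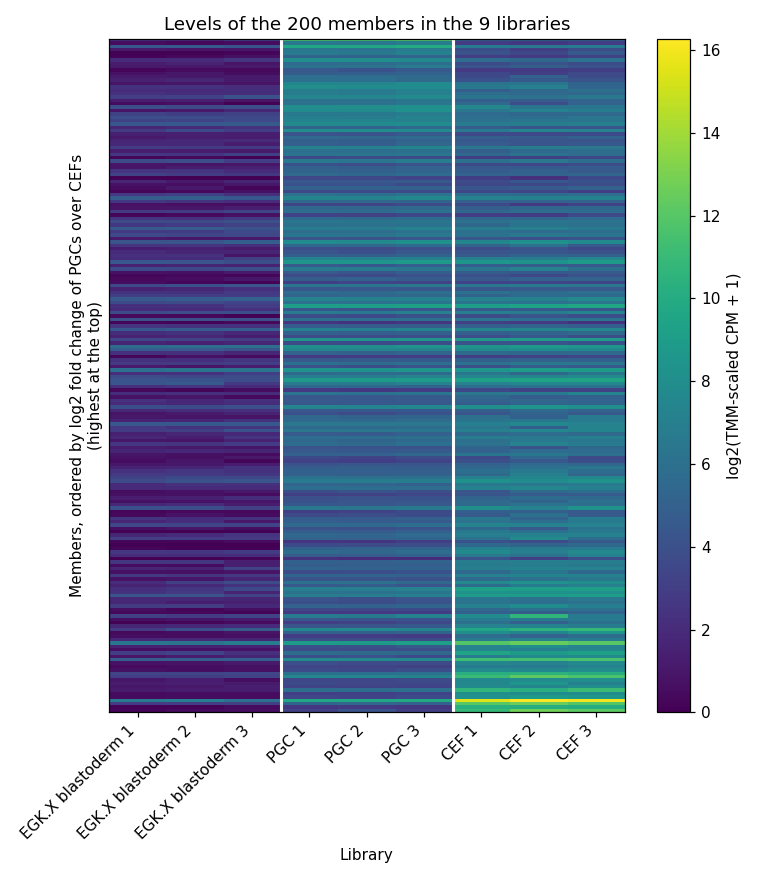
Levels of the 200 members as log2(TMM-scaled CPM + 1) in the 9 libraries (columns, by group and replicate), with rows ordered by the log2 fold change of PGCs over CEFs. Library medians lie between 2.55 and 2.71 TMM-scaled CPM in EGK.X blastoderms, between 34.4 and 37.6 in PGCs, and between 61.5 and 65.2 in CEFs.

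Most members were low in the blastoderm rather than undetected. A count was present in every EGK.X blastoderm library for 199 of the 200. The mean in EGK.X blastoderms was under 1 TMM-scaled CPM for 57 members, from 1 to 10 for 108, and from 10 to 100 for 35. In PGCs no member had a mean under 1, 19 lay from 1 to 10, 139 from 10 to 100, and 42 above. The CEF means were from 1 to 10 for 13 members, from 10 to 100 for 116, and above for 71. Each member had at least 119 counts in every PGC and CEF library, so none owed its place to a few reads there. In EGK.X blastoderms 63 members had at most 100 counts in each library, and their values carry more counting error.

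The score ran from 1.89 to 6.13 with a median of 2.42. A score above 2 was held by 173 members, above 3 by 43, and above 4 by 11. Before the addition of 1, the lowest PGC or CEF value was a median of 7.42 times the highest EGK.X value, and at least 3.91 times. The median member had an EGK.X mean at 7.77% of its PGC mean and at 4.50% of its CEF mean. At the edge of the choice, the last members had scores of 1.90, 1.89, and 1.89, and the first genes left out had scores of 1.89, 1.89, and 1.88. The boundary is therefore not a break in the data, and 3365 genes (14.8% of those with a count) had a score above 0.

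The lowest of the later values came from a PGC library for 123 members and from a CEF library for 77. PGC replicate 2, the library with the smallest total count, set it for 64 members. The highest blastoderm value came from EGK.X replicate 3 for 98 members, against 49 for replicate 1 and 53 for replicate 2. Without EGK.X replicate 3 the rule kept 165 of the 200 members. When any other library was left out it kept between 185 and 198.

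Each library was then set against members chosen without it. Only the left-out value was new, and the values it was set against had themselves chosen the genes. The 200 genes chosen from the other 8 libraries all lay in the left-out EGK.X blastoderm library under the lowest PGC and CEF value, for each of the 3 replicates. The median log2 distance was 2.73, 2.64, and 2.55 for EGK.X replicates 1 to 3. A left-out PGC library lay above the highest EGK.X value for all 200 genes, with median distances of 2.83, 2.76, and 2.90. The CEF libraries did so as well, with medians of 3.34, 3.45, and 3.58. The smallest distance of a gene was 0.40 in CEF replicate 2 and 0.84 in CEF replicate 3, and at least 1.16 in every other library. The left-out libraries were replicates of the groups that chose the genes. With all 9 libraries read, 14.8% of genes with a count had every EGK.X value under every PGC and CEF value. That share covers all genes and not genes already chosen for their separation, so it is no baseline for the left-out counts.

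Fitted with edgeR's quasi-likelihood test over all genes, all 200 members were called lower in EGK.X blastoderms than in PGCs, where 23.4% of all genes tested were called lower. All 200 were also called lower than in CEFs, where 21.6% of all genes were. For a call the adjusted p had to be under 0.05 and the log2 fold change outside -1 to 1. The rule used both contrasts, so these counts describe the choice. The median log2 fold change of the members was -3.69 against PGCs, with an interquartile range from -4.77 to -2.99. Against CEFs the median was -4.47, with an interquartile range from -6.03 to -3.37. The medians over all genes were -0.03 and 0.09 for these contrasts.

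The members with the 2 highest scores were held at like levels by both later cell types. Of the 10 highest scores, 7 belonged to members called higher or lower in PGCs against CEFs, so this did not extend to high scores in general. ENSGALG00000027070 had 3.86, 4.29, and 6.64 TMM-scaled CPM in EGK.X blastoderms, against 560, 560, and 604 in PGCs and 535, 683, and 742 in CEFs. PGCs and CEFs overlapped, and every blastoderm library lay far under both. Its counts were 255 to 452 in EGK.X blastoderms, 20762 to 39386 in PGCs, and 21967 to 31183 in CEFs.

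ENSGALG00000016843, second by score, had 10.6, 8.51, and 6.59 TMM-scaled CPM in EGK.X blastoderms, against 340, 348, and 384 in PGCs and 424, 481, and 500 in CEFs. Each CEF library lay above each PGC library, but the difference between PGCs and CEFs was small beside the distance to the blastoderm. For PGCs against CEFs its log2 fold change was -0.39 (standard error 0.16, Benjamini-Hochberg adjusted p = 0.0553 in edgeR), and that of ENSGALG00000027070 was -0.19 (standard error 0.19, adjusted p = 0.423 in edgeR). Scaled by library size without TMM factors, both were above 0, at 0.30 for ENSGALG00000016843 and 0.50 for ENSGALG00000027070.

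The rule set no direction between the 2 later cell types, and the members differed widely there. In PGCs compared with CEFs, 23 members were called higher (11.5% of them), where 23.7% of all genes tested were called higher, and 77 were called lower (38.5%), where 18.5% of all genes were. The other 100 members were not called. A member had to be on in every PGC and CEF library, so genes that were off in either group could not enter. The members were therefore also read beside the 9079 other genes whose lowest PGC or CEF value was no smaller than that of the lowest member (3.26 TMM-scaled CPM). Of those genes 12.0% were called higher in PGCs and 22.8% lower. The members' share called higher was close to theirs and the share called lower was larger, and no test of the list was made.

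The median log2 fold change of PGCs over CEFs was -0.51 for the members, -0.28 for the comparison genes, and 0.05 for all genes. With library size alone it was 0.17 for the members and 0.73 for all genes, so the sign of the median depended on the scaling. A change of scaling moves all genes by about the same amount, so the members' distance of 0.56 under all genes could not depend on it. Of the members called, 77.0% were lower with the TMM factors and 53.2% with library size alone, with 44 higher and 50 lower. Of all genes called, 56.2% were higher with the TMM factors and 75.1% with library size alone. The PGC values were all above the CEF values for 43 members (21.5%), where 34.5% of all genes and 28.9% of the comparison genes had that order. They were all below for 104 members (52.0%), beside 30.5% of all genes and 49.5% of the comparison genes, so this share was near that of the comparison genes. Those genes share the floor and not the CEF level. Their CEF library medians were 44.1 to 44.7 TMM-scaled CPM, against 61.5 to 65.2 for the members. In PGCs their library medians were 36.0 to 38.0, close to the members' 34.4 to 37.6. The PGC and CEF values overlapped for the other 53 members.

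**Figure D2:**
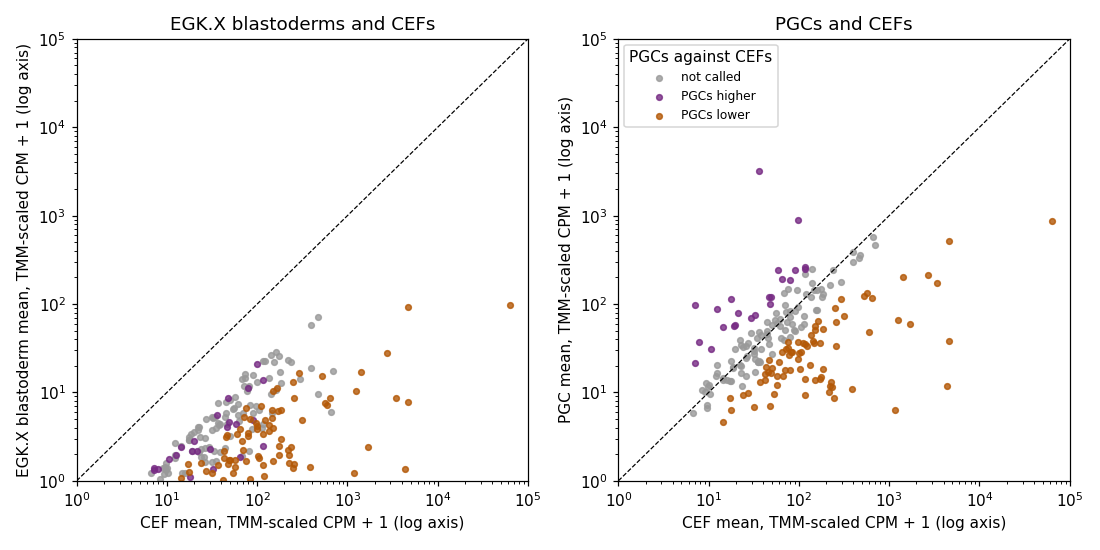
Mean TMM-scaled CPM + 1 of each member in EGK.X blastoderms, left panel, or PGCs, right panel, against its mean in CEFs, on log axes, with the line of equal values dashed. All members lie under the line in the left panel. In the right panel 23 members called higher in PGCs and 77 called lower lie on both sides of the 100 that were not called.

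The classes were made by the call of PGCs against CEFs, so their order of level in those groups restates the call. The 23 members called higher in PGCs had a median mean of 1.42 TMM-scaled CPM in EGK.X blastoderms, 99.2 in PGCs, and 31.8 in CEFs. The 77 called lower had 2.17 in EGK.X blastoderms, 22.9 in PGCs, and 121 in CEFs. The 100 members not called had 3.64 in EGK.X blastoderms, 42.8 in PGCs, and 43.8 in CEFs. Their median scores were 2.38, 2.50, and 2.36. For the 77 the lowest of the later values always came from a PGC library, and for the 23 always from a CEF library, which the direction of the call largely sets.

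**Figure D3:**
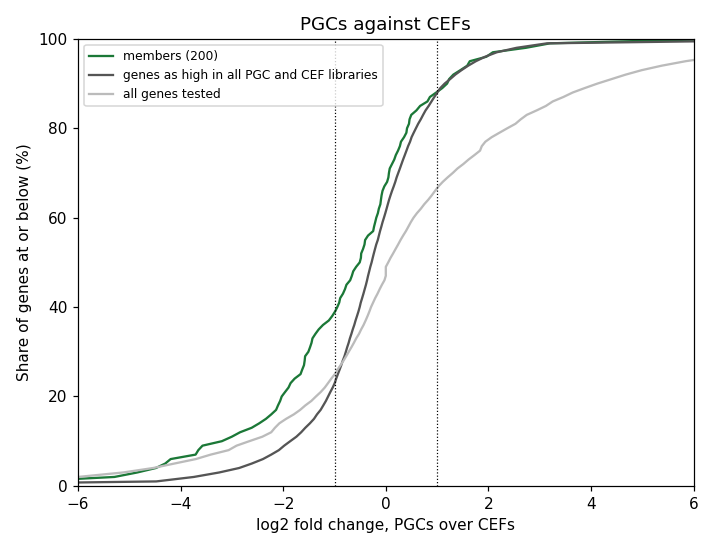
Share of genes (%) at or below each log2 fold change of PGCs over CEFs, for the 200 members, the 9079 comparison genes, and all genes tested, with dotted lines at the thresholds of -1 and 1 and values beyond the axis not drawn. The medians are -0.51, -0.28, and 0.05, and the curve of the members lies above that of the comparison genes on the side lower in PGCs.

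The 2 members called higher and the 2 called lower with the smallest adjusted p had a strong bias for PGCs or CEFs. Each was still above the blastoderm in both. They were not all at the ends of the members' range, where the lowest log2 fold change of PGCs over CEFs was -8.66. ENSGALG00000008704 had 2926, 2882, and 3679 TMM-scaled CPM in PGCs, against 34.0, 38.9, and 33.0 in CEFs, while EGK.X blastoderms had 3.88, 3.14, and 6.86. It rose in PGCs, and the log2 fold change over CEFs was 6.49 (standard error 0.29, adjusted p = 2.40e-09 in edgeR). All 3 PGC libraries lay far above all others.

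ENSGALG00000047077 had 832, 818, and 1022 TMM-scaled CPM in PGCs, against 97.1, 91.2, and 104 in CEFs, and 19.7, 23.1, and 17.8 in EGK.X blastoderms. It was higher in PGCs than in CEFs, at a log2 fold change of 3.19 (standard error 0.15, adjusted p = 3.69e-09 in edgeR). The 3 groups did not overlap.

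ENSGALG00000031112 had 36.6, 39.9, and 33.7 TMM-scaled CPM in PGCs, against 4136, 5957, and 3826 in CEFs. EGK.X blastoderms had 6.29, 6.77, and 7.55. The log2 fold change of PGCs over CEFs was -6.98 (standard error 0.21, adjusted p = 1.68e-10 in edgeR). The PGC level was thus nearer to the blastoderm than to the fibroblasts.

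ENSGALG00000012662 showed the same order, with 63.6, 60.3, and 69.7 TMM-scaled CPM in PGCs, against 1201, 1377, and 1140 in CEFs, and 9.06, 9.39, and 9.36 in EGK.X blastoderms. Its log2 fold change of PGCs over CEFs was -4.26 (standard error 0.13, adjusted p = 2.10e-10 in edgeR).

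**Figure D4:**
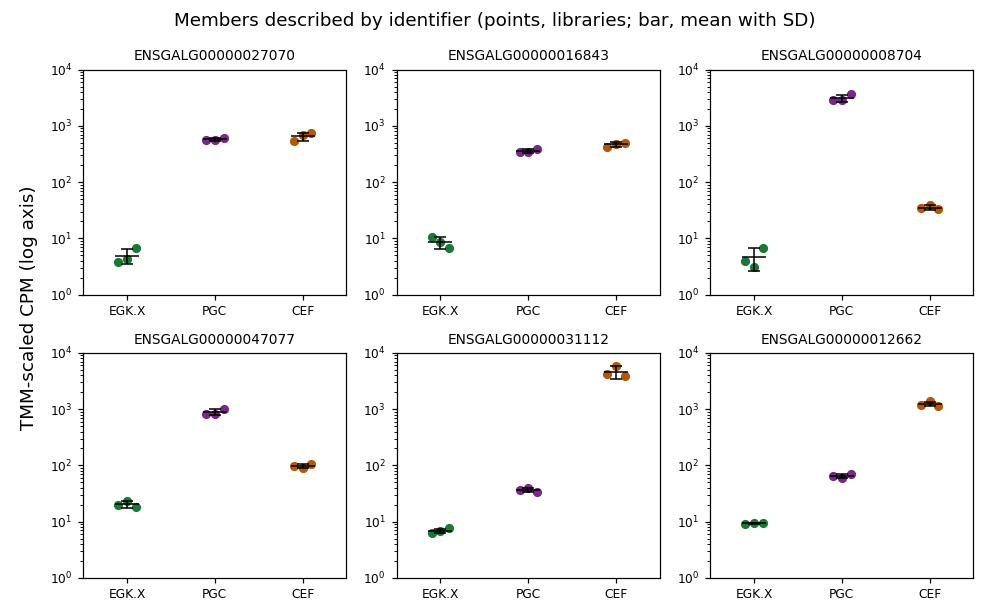
TMM-scaled CPM (log axis) of 6 members in EGK.X blastoderms, PGCs, and CEFs. Points are libraries, and bars give the mean with the SD of 3 replicates. ENSGALG00000027070 and ENSGALG00000016843 have like levels in PGCs and CEFs, ENSGALG00000008704 and ENSGALG00000047077 peak in PGCs, and ENSGALG00000031112 and ENSGALG00000012662 peak in CEFs.

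A single member held a large share of the members' counts in CEFs. ENSGALG00000003578 was singled out after its values were seen. It had the most counts of any gene in every CEF library, with 45181, 78971, and 65701 TMM-scaled CPM. EGK.X blastoderms had 107, 126, and 59.5, and PGCs had 811, 878, and 939. In counts this was 4048 to 9067 in EGK.X blastoderms, 32529 to 56998 in PGCs, and 2263234 to 2761358 in CEFs. Ranked by value, it stood between places 1757 and 3644 in EGK.X blastoderms. It was thus low there beside PGCs and CEFs, and not among genes of the same library.

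Taken as a sum, the members held 0.126% to 0.148% of the counts on genes in EGK.X blastoderms, 2.21% to 2.36% in PGCs, and 6.38% to 9.67% in CEFs. Without ENSGALG00000003578, the shares were 0.115% to 0.141% in EGK.X blastoderms, 2.10% to 2.25% in PGCs, and 2.89% to 3.83% in CEFs.

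The spread between replicates was read in the same way for members and comparison genes. The median SD over 3 replicates of a member's log2(TMM-scaled CPM + 1) was 0.20 in EGK.X blastoderms, 0.14 in PGCs, and 0.27 in CEFs. The comparison genes had medians of 0.22 in EGK.X blastoderms, 0.09 in PGCs, and 0.17 in CEFs. The members thus had their largest median in CEFs and the comparison genes in EGK.X blastoderms, and adding 1 narrows the spread of the low EGK.X values of the members. The SD in CEFs exceeded that in PGCs for 158 members (79.0%) and for 78.3% of the comparison genes, a share close to theirs.

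The genes with names in these data are those the study listed from pathway maps, and they were read on the same score. Of the 153 such genes with a count, 16 had every EGK.X blastoderm value under every PGC and CEF value. They were 8 of 106 DNA repair genes (7.55%), 3 of 22 apoptosis genes (13.6%), and 5 of 25 pluripotency regulating genes (20.0%), beside 14.8% of all genes with a count. The opposite order, with EGK.X blastoderms above every other library, was held by 50 DNA repair genes (47.2%), 3 apoptosis genes, and 8 pluripotency genes, beside 18.5% of all genes. In mismatch repair 0 of 19 genes were lowest in the blastoderm and 15 were highest there. The highest score of that pathway, -0.76, belonged to RPA1, a subunit of the protein that coats single-stranded DNA, with 236, 226, and 199 TMM-scaled CPM in EGK.X blastoderms, against 150, 148, and 145 in PGCs and 170, 139, and 148 in CEFs. The named genes below were picked for the low blastoderm values, which are therefore given with no test.

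**Figure D5:**
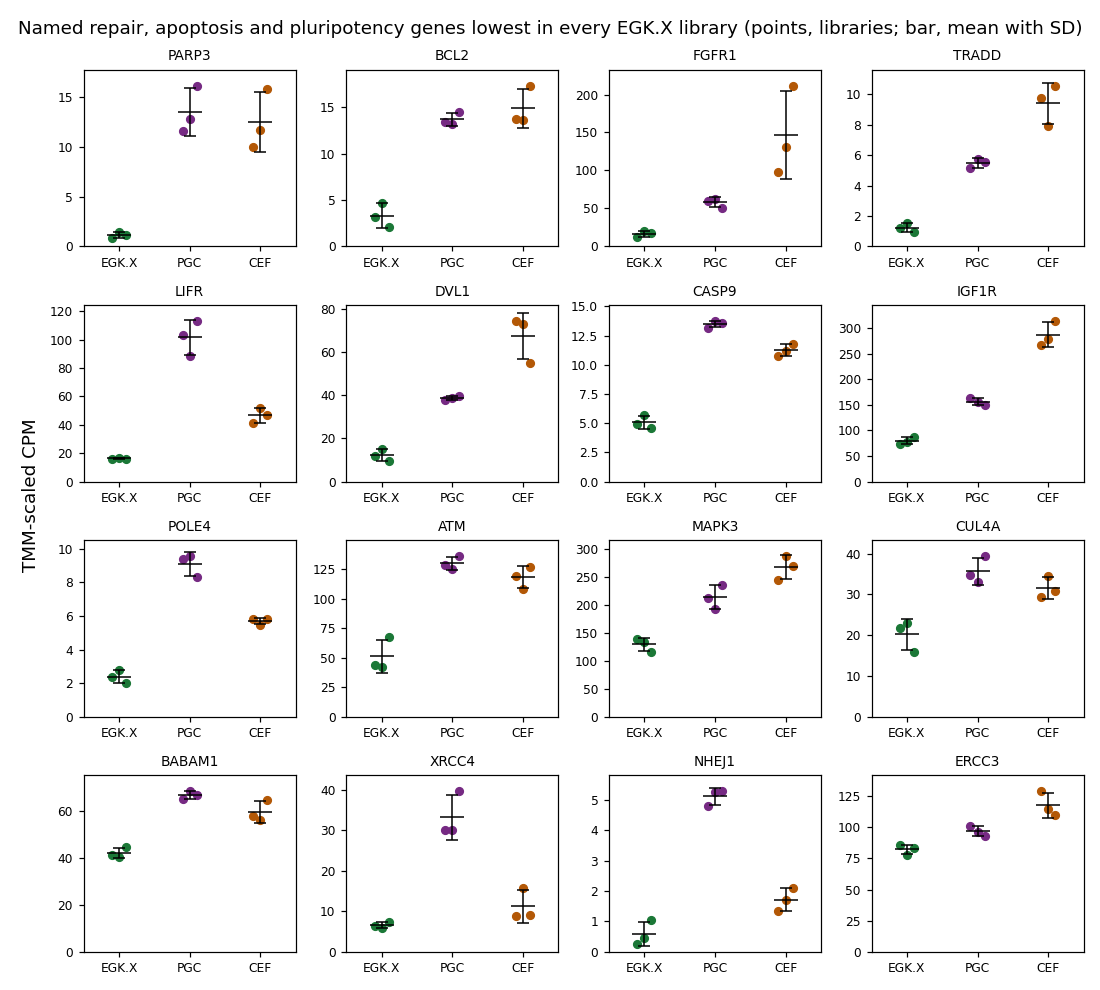
TMM-scaled CPM of the 16 named genes whose EGK.X blastoderm values all lie under the PGC and CEF values. Points are libraries, and bars give the mean with the SD of 3 replicates. PARP3 has the widest relative gap, with an EGK.X mean at 8.31% of the PGC mean and 8.96% of the CEF mean.

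PARP3 belongs to the poly(ADP-ribose) polymerase family and acts at DNA breaks. Of these named genes, it alone had a score, 2.17, that would have placed it among the 200. It lies on chromosome 12 from 3551260 to 3554379 of GRCg6a (ENSGALG00000004517). EGK.X blastoderms had 0.803, 1.44, and 1.12 TMM-scaled CPM, against 11.5, 12.8, and 16.1 in PGCs and 9.98, 11.7, and 15.8 in CEFs. PGCs and CEFs overlapped, and their difference was 0.11 on the log2 scale (standard error 0.27, adjusted p = 0.759 in edgeR).

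Of the other DNA repair genes, ATM, XRCC4, and NHEJ1 act in double-strand break signaling or end joining. They were picked for their low blastoderm values and do not stand for their pathways. Of 10 end-joining genes, 2 were lowest in EGK.X blastoderms and 3 were above every other library there. Of 39 homologous recombination genes, the list that holds ATM, 2 were lowest there and 22 were highest. ATM, the kinase that signals double-strand breaks, had 43.5, 42.2, and 67.4 TMM-scaled CPM in EGK.X blastoderms, against 129, 125, and 136 in PGCs and 119, 109, and 127 in CEFs. XRCC4 and NHEJ1 encode partners of DNA ligase 4 in end joining, and both rose in PGCs against CEFs. XRCC4 averaged 6.58 ± 0.74 in EGK.X blastoderms, 33.2 ± 5.57 in PGCs, and 11.2 ± 4.02 in CEFs (SD, n = 3 each). The CEF values of XRCC4 were uneven, at 8.78, 15.9, and 8.99. Its log2 fold change of PGCs over CEFs was 1.57 (standard error 0.25, adjusted p = 0.000168 in edgeR). NHEJ1 averaged 0.591 ± 0.402 in EGK.X blastoderms, 5.12 ± 0.27 in PGCs, and 1.71 ± 0.38 in CEFs (SD, n = 3 each), and its log2 fold change was 1.58 (standard error 0.43, adjusted p = 0.00703 in edgeR).

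POLE4, a small subunit of DNA polymerase epsilon, averaged 2.39 ± 0.41 TMM-scaled CPM in EGK.X blastoderms, 9.10 ± 0.69 in PGCs, and 5.70 ± 0.20 in CEFs (SD, n = 3 each). CUL4A, a cullin of the ubiquitin ligase that acts at ultraviolet damage, ERCC3, a helicase of TFIIH, and BABAM1, of the BRCA1-A complex, had narrower gaps. Their scores were 0.33, 0.12, and 0.32. With library size alone the scores of CUL4A, BABAM1, XRCC4, NHEJ1, and ERCC3 were below 0, so that 11 of the 16 genes kept the separation.

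Of the apoptosis genes, BCL2 encodes an inhibitor of cell death at the mitochondrion, and TRADD and CASP9 act in killing, as an adaptor of the TNF receptor and as the caspase of the apoptosome. BCL2 had 3.21, 4.71, and 2.07 TMM-scaled CPM in EGK.X blastoderms, against 13.5, 13.2, and 14.5 in PGCs and 13.7, 13.7, and 17.3 in CEFs. TRADD had 1.21, 1.55, and 0.925 in EGK.X blastoderms, against 5.13, 5.77, and 5.54 in PGCs and 9.76, 7.89, and 10.6 in CEFs. CASP9 averaged 5.08 ± 0.55 in EGK.X blastoderms, 13.5 ± 0.29 in PGCs, and 11.2 ± 0.50 in CEFs (SD, n = 3 each). These 3 were picked for their low blastoderm values, so their being low together restates the choice. Another 3 apoptosis genes had EGK.X blastoderms above every other library. Of those, BID had 79.7, 70.7, and 70.0 in EGK.X blastoderms, against 37.6, 37.6, and 36.8 in PGCs and 35.7, 35.8, and 33.7 in CEFs. For PGCs against CEFs none of the low genes passed both thresholds, with log2 fold changes of -0.12 for BCL2, -0.78 for TRADD, and 0.26 for CASP9. TRADD had every PGC value under every CEF value (adjusted p = 0.0219 in edgeR) and missed only the fold change threshold.

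The 5 pluripotency genes of this kind were picked for their low blastoderm values. Of the 25 listed, 8 had EGK.X blastoderms above every other library. The 5 were receptors and signal transducers and not the core factors. Other signal transducers on the list were not lowest in the blastoderm, such as JAK1 (score -1.15) and SMAD1 (score -0.92). LIFR, the receptor of leukemia inhibitory factor, had 16.1, 16.7, and 16.2 TMM-scaled CPM in EGK.X blastoderms, against 103, 88.1, and 113 in PGCs and 41.4, 51.9, and 47.1 in CEFs. The 3 groups did not overlap, and LIFR rose in PGCs, where the log2 fold change over CEFs was 1.12 (standard error 0.14, adjusted p = 2.84e-05 in edgeR). With FGFR1, a receptor of fibroblast growth factors, the later cells had the other order. FGFR1 had 12.1, 19.8, and 17.7 in EGK.X blastoderms, against 60.4, 62.9, and 50.5 in PGCs and 98.0, 131, and 212 in CEFs. It was lower in PGCs than in CEFs, at a log2 fold change of -1.34 (standard error 0.26, adjusted p = 0.000755 in edgeR).

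IGF1R, the receptor of insulin-like growth factor, averaged 79.6 ± 7.06 TMM-scaled CPM in EGK.X blastoderms, 156 ± 7.15 in PGCs, and 287 ± 24.5 in CEFs (SD, n = 3 each). DVL1, which relays WNT signals from the Frizzled receptors, averaged 12.2 ± 2.85 in EGK.X blastoderms, 38.7 ± 0.87 in PGCs, and 67.5 ± 10.8 in CEFs (SD, n = 3 each). MAPK3, a kinase of the ERK cascade, averaged 130 ± 11.7 in EGK.X blastoderms, 214 ± 21.9 in PGCs, and 267 ± 21.5 in CEFs (SD, n = 3 each). All 3 had their highest values in CEFs, and none passed both thresholds in PGCs against CEFs, with log2 fold changes of -0.88 for IGF1R, -0.80 for DVL1, and -0.32 for MAPK3.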

How the data were processed

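Libraries of 3 groups with 3 biological replicates each were made from total RNA with a stranded kit and sequenced as paired ends. Reads were cleaned by the authors with Trimmomatic 0.39, mapped to GRCg6a with HISAT2 2.2.0, and summed over Ensembl release 101 genes with HTSeq-count. Its strand setting is not given in the sources used here, so genes that overlap, or lie antisense to another, are uncertain. The table of counts that the authors deposited is raw. A second deposited table gives a signal, the CPM of the TMM-adjusted library size, and its values chose the members. No other columns were present. The 5 summary entries of HTSeq-count entered neither library sizes nor tests, and 48.5% to 53.4% of the records of a library lay on genes.

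All 22698 genes that had a count entered 1 fit over the 9 libraries with edgeR 4.0.16 in R 4.3.3 (TMM factors, prior count 0.125, no replicate block), and p-values of the quasi-likelihood test were adjusted over all genes tested with the Benjamini-Hochberg method. Each standard error was taken as the absolute log2 fold change divided by the root of F. The fit was tried on simulated counts in which some well-expressed genes were raised or lowered in PGCs. Those changes were balanced and few, so they do not test the scaling between the real groups. Members and lists were chosen with earlier results of these data known. Identifiers were printed for the members with the 2 highest scores. They were also printed for the 2 called higher and the 2 called lower in PGCs against CEFs with the smallest adjusted p. The member with the highest mean value was printed as well. Of the study's listed genes, the rule named those that would rank among the 200 and the highest score of each pathway. The others with a score above 0 were added after their values were seen. None of the identifiers matched the reference table of GRCg7b genes, so the lists of marker and pathway genes that had been planned were not used here. The alternatives were other scalings, DESeq2 1.42.0, the paper's likelihood ratio test, filterByExpr, the 2 groups alone, the replicate block, a prior count of 2, other pseudocounts, group means, and each library left out.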

Additional observations from a re-analysis of the deposited data

How the results depend on the processing

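All 200 members were called lower in EGK.X blastoderms, against PGCs and against CEFs, under every fit tried. The rule used both contrasts, so this restates the choice and is no check of it. In the main fit 23.4% of all genes tested were called lower against PGCs and 21.6% against CEFs. In PGCs against CEFs, library size alone gave 44 members higher and 50 lower, where the TMM factors gave 23 and 77. Over all genes, library size alone called 7899 higher in place of 5387, and 2616 lower in place of 4193. The members' median log2 fold change was then 0.17, and -0.39 with upper-quartile scaling and -0.41 with the 2 groups alone, where the TMM fit of all libraries gave -0.51. Leaving out 1 library gave 22 to 23 members higher, 72 to 81 lower, and medians from -0.59 to -0.46. With library size alone ENSGALG00000027070 had 0.50 and ENSGALG00000016843 had 0.30.

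The rule kept 133 of its members with a pseudocount of 10, 148 with 0.1, 160 with library size alone, 172 with group means, and 197 with DESeq2's size factors. The median log2 level of the members in EGK.X blastoderms was 1.86, and 1.94 with library size alone and 1.44 with a pseudocount of 0.1. Library size alone gave 5.48 in PGCs, in place of 5.20, and 5.61 in CEFs, in place of 6.00.

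The replicate numbers are shared by the groups, but the labels tie no numbers together. Same-numbered libraries deviated together with a correlation over 0.1 in 2 of 9 pairs (from -0.23 to 0.30), and 2 of the 9 correlated best with their own number. The replicate block gave 23 members higher and 75 lower. Depth limits the EGK.X values of the 63 members with at most 100 counts there.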
